A study of Mus musculus with 6 samples.

Results

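The levels of 9 marker genes of radial glia and of the neuroepithelium were followed from mouse embryonic stem cells (ESC) to neural progenitor cells (NPC): the fatty acid-binding protein genes Fabp7, Fabp3 and Fabp5, the intermediate filament genes Nes and Vim, the surface protein genes Prom1 and Ptprz1, and the extracellular matrix genes Tnc and Vit. They are 9 of the 21893 genes named on the array and are read by 14 of its 55681 probes; 5 genes had 1 probe and 4 had several. The genes were listed with their NPC-ESC differences already known, so these differences are given as a description and no test of them is drawn on.

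Both groups came from the 46c line, an ES cell line of strain 129/Ola in which GFP reports Sox1, an early neural gene. Undifferentiated 46c cells (ESC, 3 biological replicates) were set against cells sorted by their GFP after 5 days of neural differentiation in medium with the supplements NB27 and Neuro2 (NPC, 3 biological replicates). The gate kept in the sort is not stated in the labels, and all arrays rest on 1 cell line. Amplified total RNA was dye-coupled to Cy3 and read on Agilent arrays of 1 colour, and each value below is a quantile-normalised log2 signal on a scale that runs from 1.03 to 16.18. Which probes exceeded background is not known, and precision is limited by the number of arrays. Because these are bulk samples, fewer cells of a type and less RNA per cell cannot be told apart.

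Radial glia are the neural stem cells that succeed the neuroepithelial cells of the early neural tube. They keep an apical surface at the ventricle and a long basal fibre, and they are recognised by a brain-type fatty acid-binding protein, by the filament proteins nestin and vimentin, by prominin-1 on the apical membrane and, later, by matrix proteins such as tenascin-C. Fatty acid-binding proteins carry long-chain fatty acids in the cytoplasm, and each tissue uses its own members of the family.

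The labels were checked against markers of both cell types. Of 8 pluripotency markers, 6 were lower and 0 higher in NPC (limma, adjusted p under 0.05; 7 and 0 at an unadjusted p under 0.05), with Pou5f1, which encodes Oct4, at 14.42 ± 0.52 in ESC and 6.67 ± 0.27 in NPC (mean ± SD, n = 3 per group). Of 8 neural progenitor markers, 5 were higher and 0 lower (5 and 0 at an unadjusted p under 0.05). Sox1, counted among these 5, is the gene of the reporter used for the sort and so no finding. It read 7.83 ± 0.53 in ESC and 10.83 ± 0.54 in NPC. Its other probe gave a difference of 0.91 and was not called. Of all 21893 genes, 11.1% were called higher and 9.54% lower in NPC. In a fit blocked by replicate number these shares were 18.9% and 16.7%. The share of all genes at an unadjusted p under 0.05 is not given here, so nothing is read from counts at that threshold. Of the calls without the block, 53.7% were higher in NPC. When each array was centred on 14 housekeeping genes this share was 42.5%, and the median difference of all genes went from 0.01 to -0.23.

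Of the 9 marker genes, 7 were called higher in NPC and 1, Fabp3, lower, beside 11.1% and 9.54% of all genes; since the genes were chosen on this contrast, nothing is read from these counts. Nes was not called without NPC replicate 1, nor Prom1 by the mean of its probes. In 8 of the 9 genes the ESC and NPC arrays did not overlap, which held for 37.0% of all genes. The exception was Tnc. The median NPC-ESC difference was 3.26 on the log2 scale over the 9 genes and 0.01 over all genes.

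**Figure D1:**
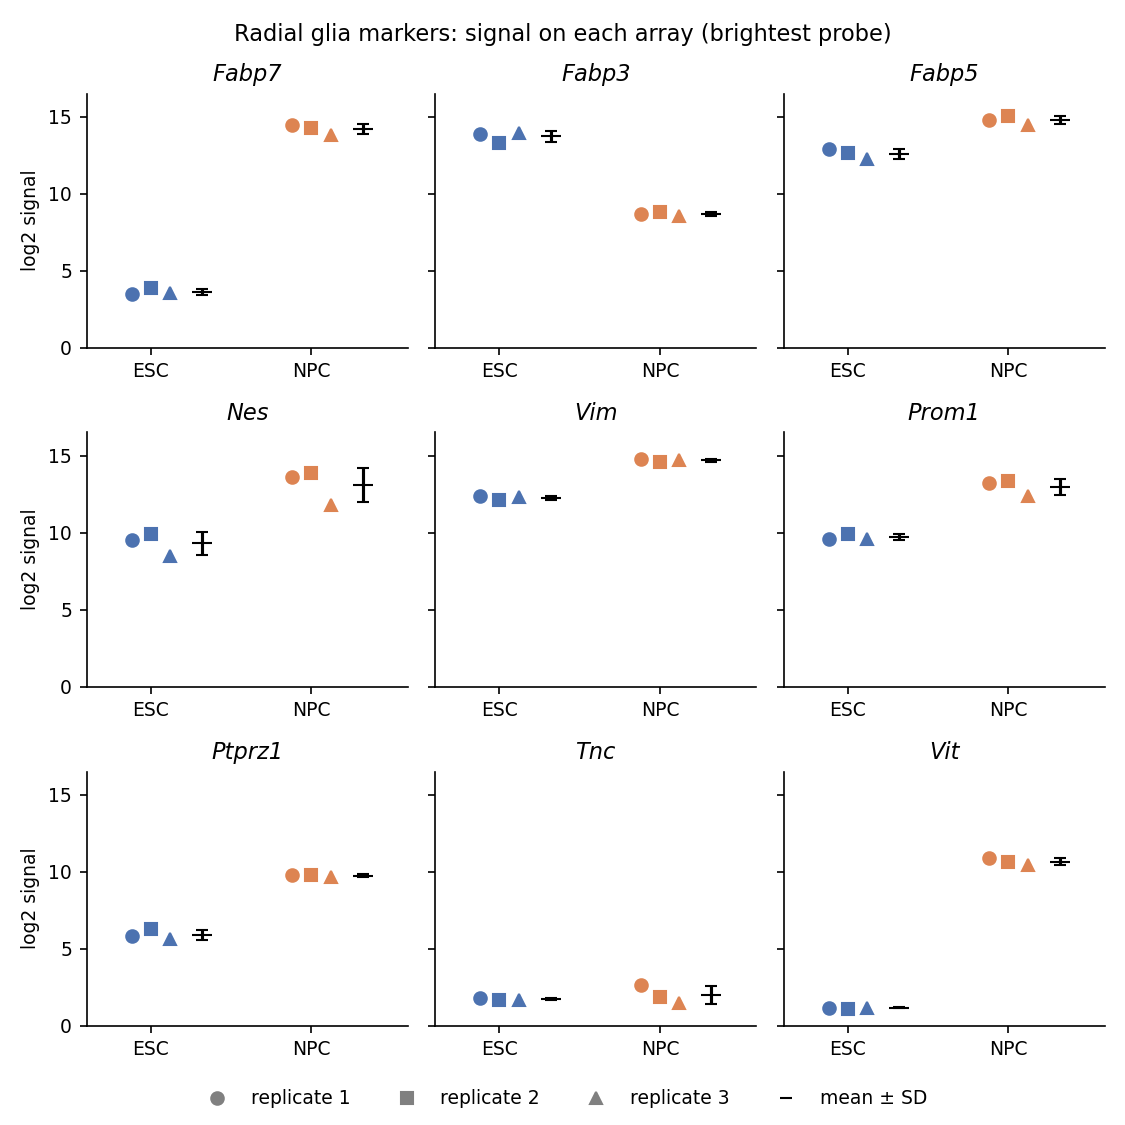
Quantile-normalised log2 signal (y axis) of the probe with the highest mean of each of the 9 genes on the 3 ESC arrays (blue) and the 3 NPC arrays (orange), with the symbol giving the replicate number and the black bar the mean ± SD. Fabp7 and Vit start near the bottom of the scale in ESC, Fabp3 is the 1 gene with lower values in NPC, and Tnc stays under 3 on every array.

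The 3 fatty acid-binding protein genes differed in direction. Fabp7, which encodes the brain type of the family and is a classical radial glia marker, read 3.47, 3.85 and 3.57 on the ESC arrays of replicates 1, 2 and 3, and 14.43, 14.28 and 13.80 on the NPC arrays. All ESC values lay near the bottom of the scale and all NPC values near its top, a gap of 9.94 between the closest arrays. The difference was 10.54 ± 0.24 (NPC minus ESC, log2, ± SE). It was 8.17 when values under 6 were set to 6, since the ESC signal may be background, so no fold is given.

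Fabp3, which encodes the heart and muscle type, went the other way. Its brighter probe read 13.87, 13.31 and 13.94 in ESC and 8.67, 8.80 and 8.56 in NPC, a difference of -5.03 ± 0.23, or a signal 32.7-fold lower. The other Fabp3 probe gave nearly the same, with means of 13.50 ± 0.36 and 8.20 ± 0.09 and a difference of -5.30. The NPC values were still in the middle of the scale.

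Fabp5, which encodes the epidermal type and is also present in neural progenitors, was bright in both groups. It read 12.87, 12.65 and 12.25 in ESC and 14.80, 15.06 and 14.48 in NPC. The groups lay 1.61 apart at their closest, and the difference of 2.19 ± 0.26 corresponds to a 4.57-fold higher signal. Pseudogenes of Fabp3 and of Fabp5 are annotated in RefSeq, and whether the probes of either gene also read such copies was not tested. Among the 3 genes, only the signals of 1 probe across arrays can be compared, not the levels of different genes.

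The start regions of the 2 genes that moved farthest apart are shown to set them side by side, from 250 bases before to 50 bases after the RefSeq start of transcription (assembly GRCm38.p6, 5′ to 3′). Capitals mark matches, on either strand, to any of 9 short motifs: RBPJ (GTGGGAA), the POU octamer (ATGCAAAT), SOX (ACAATG), a HES site (CACGCG), an E-box (CACGTG), NFI, the CCAAT box (CCAAT), the TATA box (TATAAA) and the GC box (GGGCGG). Fabp7 lies at chr10:57784673-57784972 on the plus strand and Fabp3 at chr4:130308488-130308787 on the plus strand.
Fabp7: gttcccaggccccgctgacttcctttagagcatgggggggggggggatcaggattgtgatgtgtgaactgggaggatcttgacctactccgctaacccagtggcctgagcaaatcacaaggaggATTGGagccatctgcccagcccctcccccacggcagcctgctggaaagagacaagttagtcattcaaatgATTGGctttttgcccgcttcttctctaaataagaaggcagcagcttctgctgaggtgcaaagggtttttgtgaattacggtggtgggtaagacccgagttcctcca
Fabp3: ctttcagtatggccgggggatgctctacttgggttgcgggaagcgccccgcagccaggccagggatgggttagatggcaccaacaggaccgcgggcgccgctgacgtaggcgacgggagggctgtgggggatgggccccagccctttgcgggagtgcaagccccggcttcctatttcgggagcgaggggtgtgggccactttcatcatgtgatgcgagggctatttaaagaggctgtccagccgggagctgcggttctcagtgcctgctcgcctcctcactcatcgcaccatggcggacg
The Fabp7 window held 2 CCAAT boxes, both on the minus strand, and none of the other motifs. CCAAT occurs in 37.4% of the 32851 RefSeq promoter windows of this length. The Fabp3 window held 0 of the 9 motifs. It had 22 CpG dinucleotides and 65.0% G and C, whereas the Fabp7 window had 6 CpG and 54.0%, beside a median of 7 CpG and 52.7% over all windows. A match is only a match of letters, and windows without one say nothing about the factors elsewhere in the gene.

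The remaining genes of the same protein family were mostly dim or did not pass the test. Of 11 measured family members other than the 3 above, 2 were higher and 2 lower in NPC, 36.4% beside 20.6% of all genes, with a median difference of 0.11 that turned to -0.13 with housekeeping centring. Both higher genes encode retinoic acid-binding proteins: Crabp1 rose by 6.19 ± 0.38 (limma adjusted p = 0.000268, n = 3 per group) and Crabp2 rose by 4.58 ± 0.40 (adjusted p = 0.000892). The 2 lower genes were Rbp7, a retinol-binding protein, at -2.74 ± 0.54 (adjusted p = 0.0171, up to 0.0728 with 1 array left out, and a difference of -1.56 with values under 6 set to 6), and Fabp6, the ileal bile acid carrier, from 5.59 ± 0.25 to 4.59 ± 0.23 (adjusted p = 0.028, a call lost with that floor, since all its values lay under 6). The liver type Fabp1 and the adipocyte type Fabp4 read 1.15 ± 0.02 and 1.15 ± 0.03 in ESC and 1.26 ± 0.06 and 1.21 ± 0.05 in NPC, at the bottom of the scale. Without ESC replicate 1, ESC replicate 2, NPC replicate 1 or NPC replicate 2 the calls in this family went from 4 to 2.

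Genes that take up, activate and lengthen fatty acids were listed together with the nuclear receptors of fatty acids and retinoids. Of these 23 measured genes of lipid handling, 8 rose and 1 fell, 39.1% beside 20.6% of all genes, with a median of 1.00. With values under 6 set to 6, 6 rose and 2 fell, beside 1527 higher and 1297 lower of all genes. With the replicate block 12 rose and 1 fell, beside 18.9% and 16.7% of all genes. Mfsd2a, a carrier of lysolipids with docosahexaenoic acid, rose by 4.57 ± 0.42 (adjusted p = 0.00106), and Elovl2, an elongase of long polyunsaturated fatty acids, by 3.98 ± 0.38 (adjusted p = 0.00115). The 1 gene that fell was Rarg, a retinoic acid receptor, at -4.98 ± 0.66 (adjusted p = 0.0039).

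Both intermediate filament genes were higher in NPC but differed in how evenly. Nes, which encodes nestin, read 9.49, 9.94 and 8.48 in ESC and 13.60, 13.85 and 11.80 in NPC. Replicate 3 was the lowest of both groups, and the groups lay 1.86 apart. The difference was 3.78 ± 0.66, a 13.7-fold higher signal, and within the replicate numbers it was 4.10, 3.91 and 3.33. Blocked by replicate number, the SE was 0.21.

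Vim, which encodes vimentin, was already bright in ESC. It read 12.35, 12.10 and 12.33 in ESC and 14.77, 14.58 and 14.74 in NPC. The arrays of a group agreed closely, with SDs of 0.14 and 0.10, and the difference of 2.43 ± 0.18 was 2.42, 2.48 and 2.40 within the replicate numbers. This is a 5.40-fold higher signal.

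The start regions of both filament genes, on the same scale as above, are shown because they carry different core elements (capitals as above). Nes lies at chr3:87970843-87971142 and Vim at chr2:13574061-13574360, both on the plus strand.
Nes: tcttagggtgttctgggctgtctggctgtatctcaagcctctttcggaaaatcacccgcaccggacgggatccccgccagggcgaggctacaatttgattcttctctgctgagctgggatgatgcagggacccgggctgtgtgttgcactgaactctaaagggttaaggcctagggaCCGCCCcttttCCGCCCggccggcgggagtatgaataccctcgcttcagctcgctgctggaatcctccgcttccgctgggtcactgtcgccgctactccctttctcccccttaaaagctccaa
Vim: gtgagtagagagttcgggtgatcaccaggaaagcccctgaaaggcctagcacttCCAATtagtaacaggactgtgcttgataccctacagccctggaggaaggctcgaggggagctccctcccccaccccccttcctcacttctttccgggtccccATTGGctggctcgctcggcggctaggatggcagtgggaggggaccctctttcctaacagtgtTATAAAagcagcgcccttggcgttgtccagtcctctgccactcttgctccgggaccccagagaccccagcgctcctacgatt
The Nes window held 2 GC boxes, a motif in 35.7% of all windows, and no TATA box. The Vim window held 2 CCAAT boxes and 1 TATA box whose first base stands at -32 from the start; TATAAA occurs in 13.6% of all windows.

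Other filament genes did not share 1 direction. Of 14 measured genes of keratins, neurofilaments and linkers, 2 rose, 6 fell and 6 were not called, beside 11.1% higher and 9.54% lower of all genes, with a median of -1.02. The neurofilament gene Nefh fell by 3.94 ± 0.59 (adjusted p = 0.00604), and Krt19, a keratin of simple epithelia, fell by 3.78 ± 0.60 (adjusted p = 0.00758). The rises were Nefm, at 4.65 ± 1.03 (adjusted p = 0.0256, 0.0914 with values under 6 set to 6, and up to 0.0799 with 1 array left out), and Nefl, from 11.69 ± 0.43 to 13.69 ± 0.26 (adjusted p = 0.00532), both neurofilament subunits. Gfap, the astrocyte partner of vimentin, read 5.42 ± 0.23 and 5.08 ± 0.39 (adjusted p = 0.477). Without ESC replicate 1 the calls in this list went from 8 to 5.

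The surface protein genes were both higher in NPC, with probes of each gene that gave smaller differences. Prom1 encodes prominin-1 (CD133), a pentaspan protein of the apical membrane of neuroepithelial cells. Its brighter probe read 9.61, 9.91 and 9.59 in ESC and 13.20, 13.32 and 12.38 in NPC. The groups lay 2.46 apart, with NPC replicate 3 the lowest NPC array, and the difference was 3.26 ± 0.30, or 9.60-fold. The other Prom1 probe read 4.22, 2.44 and 7.46 in ESC and 5.33, 4.04 and 10.27 in NPC. At this probe replicate 3 was highest and replicate 2 lowest in both groups, and the groups overlapped. Even so, NPC was above ESC within each number, by 1.12, 1.61 and 2.80. Why the replicates differed was not tested. The mean of both probes gave 2.55.

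Ptprz1 encodes a receptor tyrosine phosphatase with chondroitin sulphate chains, found on radial glia. Its brightest probe read 5.79, 6.27 and 5.64 in ESC and 9.78, 9.79 and 9.63 in NPC. The 3 NPC arrays were nearly equal, with an SD of 0.09, and the difference was 3.83 ± 0.23. Since 2 of the ESC values lay under 6, no fold is given, and with values under 6 set to 6 the difference was 3.64. The second probe gave 3.88, from 5.43 ± 0.17 to 9.31 ± 0.11. The third probe stayed dim, at 3.40 ± 0.32 and 4.15 ± 0.15, with a difference of 0.75, and the mean of all 3 probes gave 2.82.

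**Figure D2:**
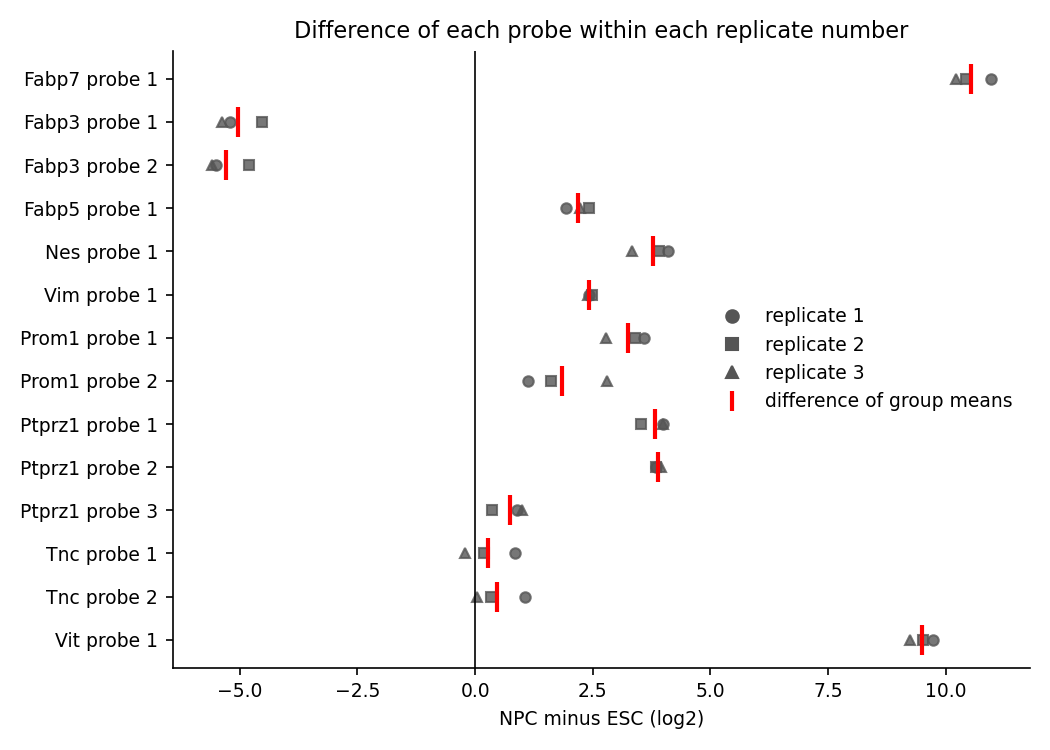
NPC minus ESC difference (x axis, log2) of each of the 14 probes, with 1 symbol per replicate number and a red bar at the difference of the group means. In 11 of 14 probes NPC was higher within every replicate number; both Fabp3 probes were lower in every one, and the brighter Tnc probe was lower in replicate 3, at -0.22.

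Genes listed around Ptprz1 rose in NPC or did not pass. They are its ligands and binding partners, its paralog Ptprg and genes such as Sdc3 that bind a ligand, together called Ptprz1 partners here. The count is therefore not one of Ptprz1 binders alone. Of 18 measured, 10 rose and 0 fell by limma (12 and 0 at an unadjusted p under 0.05). These calls were 55.6%, beside 20.6% of all genes, and the median difference was 1.51. The Ptprz1 ligand Ptn, pleiotrophin, rose by 5.24 ± 1.05 (adjusted p = 0.0183, 0.0685 with values under 6 set to 6, and up to 0.0754 with 1 array left out). The related ligand Mdk, midkine, read 12.91 ± 0.38 and 14.77 ± 0.50 and rose by 1.86 ± 0.34 (adjusted p = 0.0127, up to 0.0571 with 1 array left out and 0.082 with housekeeping centring). Nrcam, an adhesion molecule that binds the Ptprz1 ectodomain, rose by 4.60 ± 0.38 (adjusted p = 0.000729), and Sdc3, a syndecan that binds pleiotrophin, by 4.17 ± 0.57 (adjusted p = 0.00458). For the paralog Ptprg the difference was 0.64 ± 0.46 (adjusted p = 0.43, but 0.0429 in the blocked fit). Without ESC replicate 1, or without NPC replicate 1, 5 of these 18 genes were called.

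Around prominin-1, apical and junction genes were counted. Of 24 measured genes, 9 rose and 2 fell, 45.8% beside 20.6% of all genes, and their median was 0.54. With values under 6 set to 6, 6 rose and 1 fell, beside 1527 higher and 1297 lower of all genes. With the replicate block 11 rose and 4 fell, beside 35.7% of all genes called. Cdh2, Ttyh1 and Cd24a, all among the 9 rises, are counted again among the other radial glia markers below. Crb2, an apical polarity protein, rose by 5.81 ± 0.67 (adjusted p = 0.00233), and Ctnna2, the neural alpha-catenin, by 4.62 ± 0.24 (adjusted p = 0.000168). The 2 that fell were Prom2, the epithelial paralog of Prom1, at -4.92 ± 0.69 (adjusted p = 0.00486, with -0.96 and no call when values under 6 were set to 6, and 0.01 at its other probe), and Patj, a polarity scaffold, at -1.37 ± 0.36 (adjusted p = 0.0453, up to 0.151 with 1 array left out, 0.0902 with housekeeping centring, and a difference of -0.71 with the floor of 6). Without ESC replicate 1 and without NPC replicate 1 the calls in this list went from 11 to 6 and 7.

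The 2 matrix genes were unlike each other. Vit encodes vitrin (akhirin), a secreted protein with von Willebrand factor A domains found in the developing neural tube. It read 1.15, 1.11 and 1.17 in ESC, next to the lowest value of the table, and 10.90, 10.64 and 10.41 in NPC. The groups lay 9.24 apart and the difference was 9.50 ± 0.20. With values under 6 set to 6 it was 4.65, so its size rests on signals that may be background.

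Tnc encodes tenascin-C, a matrix glycoprotein of late radial glia and astrocyte precursors. Its brighter probe read 1.78, 1.66 and 1.69 in ESC and 2.62, 1.84 and 1.47 in NPC, and its other probe averaged 1.51 ± 0.06 and 1.98 ± 0.58. The groups overlapped at both probes, with NPC replicate 1 the highest array, and the difference of the brighter probe was 0.27 ± 0.32. All 12 readings of the 2 probes lay near the bottom of the scale, where a transcript may be under the background.

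The Tnc start region is shown because, among the printed windows, it is the one with an RBPJ and an octamer match. It lies at chr4:64046966-64047265 on the minus strand and belongs to 1 of 2 RefSeq start sites (capitals as above).
Tnc: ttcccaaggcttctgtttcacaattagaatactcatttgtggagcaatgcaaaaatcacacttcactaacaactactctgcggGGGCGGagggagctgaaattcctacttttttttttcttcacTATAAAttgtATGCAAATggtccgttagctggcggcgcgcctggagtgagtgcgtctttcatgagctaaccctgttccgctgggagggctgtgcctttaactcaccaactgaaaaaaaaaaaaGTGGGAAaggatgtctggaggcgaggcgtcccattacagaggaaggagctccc
RBPJ letters occur in 6.38% of all windows and the octamer in 1.74%. The window also held 1 TATA box and 1 GC box.

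Tenascin relatives, receptors and matrix partners were mostly not called. Of 22 measured genes, 5 rose and 1 fell, 27.3% beside 20.6% of all genes, with a median of 0.05 that turned to -0.20 with housekeeping centring. The counts were 6 and 6 with the replicate block, and 1 and 2 with housekeeping centring. Cntn1, among the 5 rises, and Tnr are also counted among the Ptprz1 partners. Anxa2, an annexin that binds tenascin-C, fell by 3.29 ± 0.25 (adjusted p = 0.000524). Itgb8, an integrin subunit of radial glia, rose by 2.65 ± 0.39 (adjusted p = 0.00609) from 1.19 to 3.84, both under the floor of 6. The neural proteoglycan Ncan rose by 1.56 ± 0.41 (adjusted p = 0.0467, up to 0.151 with 1 array left out, 0.115 with the floor of 6 and 0.195 with housekeeping centring). Tnr, the neural tenascin, read 3.28 ± 0.27 and 4.59 ± 0.75 (adjusted p = 0.0783, and 0.0315 with the block). Without ESC replicate 1 the calls in this list went from 6 to 2, and without ESC replicate 3, NPC replicate 1 or NPC replicate 2 to 3.

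Secreted proteins with the same kind of domain as Vit were set beside it. Of 7 measured, 1 rose and 4 fell, beside 11.1% and 9.54% of all genes, with a median of -1.80. Coch, cochlin, the closest relative of Vit, fell by 5.09 ± 0.28 (adjusted p = 0.0002), from 6.91 ± 0.37 to 1.82 ± 0.30, and Vwa2 fell by 2.42 ± 0.39 (adjusted p = 0.00825). Matn2, a matrilin, rose by 2.94 ± 0.32 (adjusted p = 0.00199). With values under 6 set to 6 the differences were -0.91, -1.12 and 1.69, and only Matn2 of this list was called.

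Among the arrays of a group the 9 genes, each read by its brightest probe, did not vary alike. NPC replicate 3 was the lowest NPC array for 8 of the 9, all but Vim, beside 55.7% of all genes. Nes had the widest SD of the 9 genes in both groups, 0.75 in ESC and 1.12 in NPC. The dimmer Prom1 probe had wider SDs, 2.55 in ESC and 3.28 in NPC, with replicate 3 highest in both groups. On the array of NPC replicate 3 the median of 14 housekeeping genes was 0.52 above its mean over the arrays, and its part in these values was not tested. In ESC, replicates 2 and 3 were each lowest for 4 of the 9 genes and replicate 1 for 1. Without both replicate 3 arrays, a setting added after the data were seen, the differences of Nes and Prom1 were 4.01 and 3.50.

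**Figure D3:**
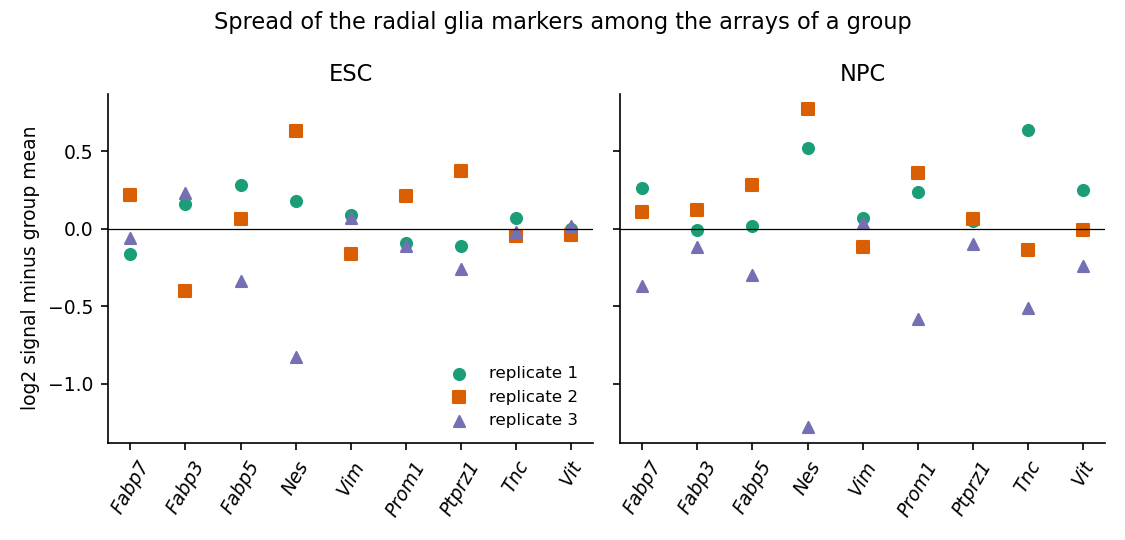
Deviation of the brightest probe of each of the 9 genes from its group mean (y axis, log2) on the 3 ESC arrays (left) and the 3 NPC arrays (right). Symbol and colour give the replicate number. Nes shows the widest spread in both groups, with replicate 3 lowest in each, while Vim has SDs of 0.14 and 0.10.

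Genes with the most similar course over the 6 arrays were found by the root mean square distance of log2 values, each profile taken minus its own mean. Nearest to Fabp7 was the homeobox gene Dbx1 at 0.19, with 2.85, 2.85 and 2.94 in ESC and 13.36, 13.34 and 13.13 in NPC, and then the noncoding RNA Pantr1 at 0.31. Nearest to Nes were Soga1 at 0.17 and Bach2 at 0.18, which shared its low replicate 3: Bach2 read 5.64, 5.94 and 4.99 in ESC and 9.83, 9.84 and 7.98 in NPC. Nearest to Prom1 were Cmtm8 at 0.09 and Nat8l at 0.12, to Ptprz1 Pfn2 at 0.10 and Plekho1 at 0.11, and to Vim Nt5m and Tulp4 at 0.09 each. Fabp5 lay closest to Wdr17 at 0.09 and to Ptprs at 0.11, and Vit to Igfbp5 and Hoxb2, both at 0.31. For the falling Fabp3, Sycp3, a gene of the meiotic chromosome axis, lay at 0.14 and went from 11.60 ± 0.45 to 6.69 ± 0.13. Nearest to Tnc were Gm5331 at 0.02 and Csnka2ip at 0.03, which read 1.96 ± 0.56 and 2.01 ± 0.59 in NPC, at the bottom of the scale like Tnc, and nearest to Fabp3 was D7Ertd143e at 0.11. A small distance over 6 arrays of 2 groups mainly says that the difference was of the same size.

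Other genes used as radial glia and neural stem cell markers did not all follow. Of 37 measured, 19 rose and 3 fell, 59.5% beside 20.6% of all genes, with a median of 1.49 (24 and 6 with replicate numbers as a block). The 19 include Sox1, the gene of the reporter used for the sort. Hes5, a Notch effector, rose by 8.79 ± 0.24 (adjusted p = 5.76e-05), and Sox9, a factor of neural stem cells, by 8.58 ± 0.21 (adjusted p = 5.76e-05, 4.02 with values under 6 set to 6). The membrane protein Gpm6b rose by 5.14 ± 0.37 (adjusted p = 0.000464), but its other probe gave 1.51 and was not called. Cdh2, N-cadherin, rose by 4.12 ± 0.36 (adjusted p = 0.000896). The falls were Hopx at -2.97 ± 0.58 (adjusted p = 0.0169, up to 0.0673 with 1 array left out and 0.0671 with the floor of 6), a marker of outer radial glia, Itgb5 at -2.12 ± 0.36 (adjusted p = 0.0096), and Glul, glutamine synthetase, at -0.93 ± 0.23 (adjusted p = 0.0367, up to 0.134 with 1 array left out and 0.118 with housekeeping centring).

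Some markers of the glial side of radial glia were among the 15 of these 37 genes that did not pass. Slc1a3, the glutamate transporter GLAST, had means of 8.64 ± 0.71 and 9.42 ± 0.82 (adjusted p = 0.41, and 0.0198 with the replicate block). Aldh1l1, a folate enzyme of astrocytes, read 8.12 ± 0.36 and 7.03 ± 0.53 (adjusted p = 0.0798, but 0.0325 in the blocked fit). The glutamate transporter gene Slc1a2 rose by 3.77 ± 0.16 (adjusted p = 0.00012), but from 1.52 to 5.29, under the floor of 6, and its other 2 probes gave -0.10 and 1.20. The 19 rises of this list, beside 3 falls, also held Ednrb and Fgfr3. Ednrb rose by 5.28 ± 0.54 (adjusted p = 0.0015). Fgfr3 rose by 4.77 ± 0.75 (adjusted p = 0.00734), while its other 2 probes gave 1.45 and -0.39. Without ESC replicate 1, or without NPC replicate 1, 14 of the 37 genes were called instead of 22, and with housekeeping centring 13 rose and 2 fell.

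Genes known to act on Fabp7 or Nes also split. Of 22 measured factors and Notch genes, 6 rose and 3 fell, 40.9% beside 20.6% of all genes, with a median of 1.13. With the replicate block 12 rose and 3 fell, beside 18.9% and 16.7% of all genes. Of the 22, 8 stand in the list of other radial glia markers too, among them Hes5 and Sox1. Both are among the 6 rises, and Sox1 is the gene of the reporter used for the sort. Pou3f2, a POU factor that binds the Nes enhancer, rose by 8.57 ± 0.24 (adjusted p = 5.76e-05, 5.42 with values under 6 set to 6). Sox11 rose by 4.48 ± 0.19 (adjusted p = 0.000112). The falls were Nfib, at -2.14 ± 0.48 (adjusted p = 0.0276), Pou3f1, at -1.58 ± 0.42 (adjusted p = 0.0471), and Rbpj, which brings Notch to DNA, at -1.22 ± 0.31 (adjusted p = 0.0398). The calls of all 3 were lost with 1 array left out (up to 0.103, 0.156 and 0.144) and with the floor of 6. For Pax6, a factor that acts on Fabp7, the difference was 1.81 ± 1.13 (adjusted p = 0.357, but 0.00606 in the blocked fit).

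**Figure D4:**
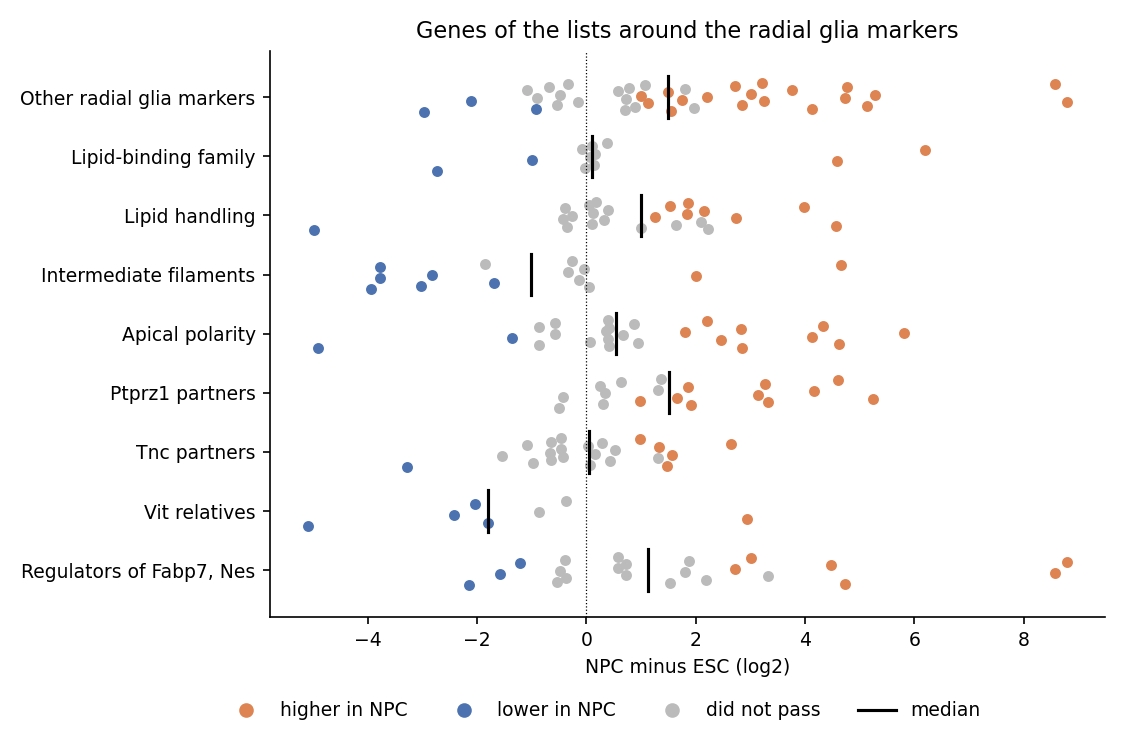
NPC minus ESC difference (x axis, log2) of each measured gene of 9 lists, with genes called higher in NPC in orange, called lower in blue and not called in grey, and the list median as a black line. The medians run from -1.80 for the relatives of Vit to 1.51 for the partners of Ptprz1.

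Several of the 9 genes are also expressed outside the neural lineage, so markers of such cells are given beside them. The counts below stand beside 11.1% of all genes called higher in NPC and 9.54% called lower. Of 8 muscle markers (muscle expresses Nes, Vim and Fabp3), 0 rose and 0 fell by limma (1 and 1 at an unadjusted p under 0.05), their summed level was 8.39 to 8.54 in ESC and 8.25 to 8.45 in NPC (log2 of the summed signals), and Myf5 and Myod1 read 1.33 and 5.08 in ESC and 1.45 and 5.11 in NPC. Of 7 fibroblast markers, the collagen genes Col1a1 and Col1a2 rose and Thy1 fell, with a summed level of 8.74 to 9.77 and 9.24 to 9.59. The Col1a1 call (adjusted p = 0.0494) was lost with the floor of 6 (0.0667), with housekeeping centring (0.279) and with 1 array left out (up to 0.161), and that of Thy1 (adjusted p = 0.0102) with the floor (0.071) and with 1 array left out (up to 0.0507). Of 6 endothelial markers 0 rose and 1, Tie1, fell by limma (0 and 1 at an unadjusted p under 0.05), with sums of 10.47 to 10.94 and 9.99 to 10.43. All Tie1 values lay under 6, with means of 3.69 and 1.14, so its call was lost with the floor of 6. Of 5 epidermal markers, where Fabp5 is also found, 0 rose and 0 fell (limma; 1 and 0 at an unadjusted p under 0.05), with sums of 9.98 to 10.28 and 10.20 to 10.58. Sums of these 4 lists overlapped between the groups except the endothelial one, which was lower in NPC.

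Markers of neurons, glia and endoderm were counted in the same way, beside 11.1% of all genes called higher in NPC and 9.54% called lower. Of 8 markers of young neurons, 5 rose and 0 fell (6 and 1 at an unadjusted p under 0.05 by limma), and their summed level went from 12.68 to 13.26 in ESC to 14.21 to 14.59 in NPC. The calls of Rbfox3, Elavl3 and Elavl4 were lost with 1 array left out (adjusted p up to 0.0991, 0.0582 and 0.0944). Of 6 astrocyte markers 1, Slc1a2, rose and 0 fell (1 and 2 at an unadjusted p under 0.05 by limma), with sums of 11.59 to 11.75 and 10.47 to 11.19. Of 6 oligodendrocyte lineage markers 3 rose and 0 fell (3 and 1 at an unadjusted p under 0.05 by limma), with sums of 8.57 to 8.98 and 9.63 to 10.45. The calls of Olig2 and Pdgfra were lost with the floor of 6 (differences of 0.19 and 0.00), and the other 2 probes of Mbp gave -0.60 and -0.53. Of 6 endoderm markers 1, Foxa2, rose and 0 fell (1 and 2 at an unadjusted p under 0.05 by limma). Their sums were 7.33 to 8.13 in ESC and 10.05 to 10.96 in NPC. Foxa2 alone read 4.54 ± 0.42 in ESC and 10.23 ± 0.50 in NPC, and so made up most of the NPC sums. Gata4 read 7.10 and 7.11, while Sox17, Gata6, Afp and Cer1 lay under 6 on every array. The part of such cells in the values of the 9 genes was not tested.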

How the data were processed

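Transcripts were measured on single-colour Agilent arrays in 3 ESC and 3 NPC samples, grouped by their titles. The deposited table holds log2 values of 55681 probes, quantile normalised across the 6 arrays by the authors, as the sorted columns are identical (largest difference 0). Base 2 was taken from the range of the values. The submitters' processing notes name limma with no version; how background was corrected and probes filtered is not stated there. The platform annotation named 30626 probes with 1 gene symbol, 0 with several, and 25055 are unnamed here.

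The NPC-ESC contrast was fitted with limma 3.58.1 (R 4.3.3; lmFit, eBayes, two-sided, Benjamini-Hochberg adjusted p under 0.05) on 21893 genes, each by its probe of highest mean, with no filter on dim probes and no covariate. All p-values are adjusted over all genes. The fit was also run on simulated data with independent noise on each array. Such data lack the shared deviations of same-numbered replicates given below, so no conclusion is drawn from that run. Alternatives were a replicate block, the mean of all probes, a fit on every probe, a mean of at least 6, values under 6 set to 6, housekeeping centring, an intensity trend and leaving out each array.

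The members, lists and tests were chosen with earlier results of these data known. Named genes are all members, Sox1 and Pou5f1, the 2 largest called rises and falls of each list, any gene of the radial glia, lipid-binding, Ptprz1, Tnc, Vit, regulator and marker lists, and the 2 genes nearest to each member. Some listed genes were not analysed here.

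Same-numbered replicates deviated together across genes (r = 0.189, 0.721 and 0.768 for replicates 1, 2 and 3). The numbers in the titles were therefore taken to pair the samples in the blocked fit and in the differences within replicate numbers. The deviations of NPC replicate 1 were, however, closer to those of ESC replicate 2 (r = 0.402). The main fit and the fits with 1 array left out did not use the pairing. A gene not called there, or a call lost there, may therefore pass in a blocked fit. Promoter windows came from RefSeq, assembly GRCm38.p6, which held 7 of the 9 members. The fold values are 2 to the power of the log2 difference.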

Additional observations from a re-analysis of the deposited data

How the results depend on the processing

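No called difference of a member was reversed under these alternatives, while that of Tnc, not called, went from 0.27 to -0.05 without NPC replicate 1. Of 124 recomputed member differences 117 moved by less than 1 SD. The replicate block, the fit on every probe, the filter on the mean and the intensity trend leave a difference unchanged by construction. Part of the 117 was therefore fixed in advance, and the count is no measure of stability. Centring on housekeeping genes gave 2.19 for Vim, 3.59 for Ptprz1 and 9.26 for Vit, 3 calls among the Tnc partners and 1388 genes higher. Setting values under 6 to 6 gave 8.17 for Fabp7 and 4.65 for Vit, 1527 genes higher and 1297 lower, and 7, 2 and 1 calls among the polarity genes, the Tnc partners and the relatives of Vit. The mean of all probes gave 2.55 for Prom1 and 2.82 for Ptprz1. A fit on every probe called 7 polarity genes, and a mean of at least 6 left 1380 genes lower and 2 called relatives of Vit. With the replicate number as a block, 4147 genes were higher and 3660 lower, against 2423 and 2089 without it, with 12 Tnc partners and 15 regulators called; the block changed the call of no member. Nes was not called without NPC replicate 1, nor Prom1 by the mean of all probes. Leaving out each array in turn gave 1475 to 2644 genes higher and 1289 to 1923 lower, the low ends without ESC replicate 1, and 1555 higher without NPC replicate 1. Calls ranged from 14 to 21 among the other radial glia markers, 2 to 4 in the lipid-binding family, 5 to 7 among the filaments, 6 to 12 among the polarity genes, 5 to 10 among the Ptprz1 partners and 2 to 6 among the Tnc partners. The differences ranged from 3.37 to 4.42 for Nes and from -0.05 to 0.52 for Tnc. Without both replicate 3 arrays, a setting chosen after seeing the data, 2659 genes were higher and 2086 lower. Detection calls were not analysed here, so values near the bottom of the scale (Tnc, and the ESC values of Fabp7 and Vit) have no known background.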
